A study of Homo sapiens with 12 samples.

Results

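The genes described here encode the subunits of the mitochondrial respiratory chain and of the ATP synthase that are made from the nuclear genome. They were taken from the count table as protein-coding genes whose symbols start with NDUFA, NDUFB, NDUFC, NDUFS or NDUFV (complex I), SDH (complex II), UQCR (complex III), COX4 to COX8 (complex IV) or ATP5 (complex V). Assembly factors were left out, and CYC1, cytochrome c1 of complex III, falls outside these symbols. Of 58233 rows, 90 carried such a symbol, and the 81 with 10 or more counts in at least 2 libraries form the module: 39 genes of complex I, 4 of complex II, 9 of complex III, 11 of complex IV and 18 of complex V. The rule uses symbols and a count minimum and no measured difference, though it was chosen with earlier results of these data known. All 81 were among the 15749 genes tested, and 78 of them had 10 counts or more in all 12 libraries.

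The libraries came from MCF10-A, a non-tumour line of human mammary epithelial cells. Its derivatives carried the labels Vector, B4-4 and Addback, and each was sampled under the labels NA and EDTA (EDTA binds calcium and other divalent cations), with 2 libraries for each of the 6 combinations. The cells of every group had been held in suspension for 3 hours without serum on poly-HEMA, a coating to which cells do not attach. How B4-4 and Addback were made, the meaning of NA, the dose of EDTA and whether replicates were separate cultures are not stated in the labels or series text used here. P-values therefore measure only the spread between these libraries, which may be technical.

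The respiratory chain passes electrons from NADH, through complex I, and from succinate, through complex II, to ubiquinone. Complex III hands them to cytochrome c and complex IV to oxygen, while complexes I, III and IV move protons across the inner mitochondrial membrane. The ATP synthase, complex V, lets the protons back in and makes ATP. Most subunits are encoded in the nucleus and imported, and a core set is encoded in mitochondrial DNA. Detached epithelial cells are known to lose nutrient uptake and ATP.

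Library totals ran from 15685376 to 22156173 counts, and the module took 0.775% to 1.09% of them. ITGB4, the beta 4 chain of the integrin named in the series title, was at 182 to 395 CPM in the 4 B4-4 libraries against 1060 to 1850 CPM in the other 8 (CPM, counts scaled to 1e+06 per TMM-normalised library). Basal mammary markers were present in every library: KRT5 stood at 4320 to 6780 CPM and TP63 at 81.2 to 161 CPM. Luminal markers were mixed: KRT8 was at 169 to 575 CPM, KRT18 at 303 to 450 CPM and GATA3 at 8.18 to 34.5 CPM. KRT19, ESR1 and PGR reached at most 1.23 CPM. Among endothelial markers PECAM1 was at 3.35 to 34.2 CPM, VWF at up to 0.224 CPM and CDH5 at 0 in every library. The leukocyte marker CD3E was at 0 in every library, with PTPRC and CD68 at up to 0.23 CPM. The 7 fibroblast genes summed to 15.1 to 68.1 CPM, highest in Addback. Replicates lay far apart in 2 groups: the B4-4 NA libraries were 2-fold or more apart, on a log2(CPM + 1) scale, in 503 of 15749 genes and the Addback EDTA libraries in 349, against 3 to 12 in the other pairs. No member was 2-fold apart on that scale, though members of few counts such as NDUFA7 and NDUFA4L2 were in plain CPM. Of the 81 members, 68 were higher in B4-4 NA 2 than in B4-4 NA 1. Other pairs were one-sided too: replicate 1 was the higher for 11 members in Vector EDTA and 15 in Addback NA. It was the higher for 29 in B4-4 EDTA, 37 in Vector NA and 46 in Addback EDTA. The matching shares of all genes tested are not given here. Addback EDTA 2 was run on lane 7 and every other library on lane 8. Each count below is therefore also given without the single libraries that move it by more than 1.5 times. The 13 mitochondrially encoded subunit genes were listed at 0 in all libraries, so the mitochondrial genome's share of the chain is not measured here.

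Promoters are shown for 4 members that fell with EDTA in B4-4, as examples of the start regions of genes that moved together. They are those with the smallest adjusted p there among members with a RefSeq promoter whose window holds at most 30 annotated exon bases, after leaving out 1 chromosome that is not reported here. Each line is the 200 bases before the RefSeq start site (GRCh38.p14), 5′ to 3′ on the gene's strand. Capitals mark matches on either strand to 4 motifs. The letters CCGGAAGT stood for the ETS family factor GABPA. The letters GCATGCGC stood for NRF1 and the letters AAGATGGC for YY1. The letters TATAAA stood for the TATA box.
COX5B: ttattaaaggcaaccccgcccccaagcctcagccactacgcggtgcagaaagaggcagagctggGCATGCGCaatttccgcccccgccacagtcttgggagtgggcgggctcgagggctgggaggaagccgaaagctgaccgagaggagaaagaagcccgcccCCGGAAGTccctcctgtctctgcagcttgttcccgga
ATP5PD: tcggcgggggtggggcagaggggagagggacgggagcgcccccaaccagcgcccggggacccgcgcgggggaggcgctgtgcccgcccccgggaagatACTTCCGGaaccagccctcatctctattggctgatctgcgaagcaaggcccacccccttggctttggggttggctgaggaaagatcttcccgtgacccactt
COX7B: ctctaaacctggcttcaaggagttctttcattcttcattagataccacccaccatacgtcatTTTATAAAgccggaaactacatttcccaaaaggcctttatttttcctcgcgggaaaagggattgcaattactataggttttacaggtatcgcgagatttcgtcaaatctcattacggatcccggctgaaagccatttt
NDUFB7: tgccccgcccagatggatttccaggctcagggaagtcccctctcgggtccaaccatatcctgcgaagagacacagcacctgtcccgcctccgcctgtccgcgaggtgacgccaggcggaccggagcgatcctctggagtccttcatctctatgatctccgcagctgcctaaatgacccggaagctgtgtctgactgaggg

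The windows lie at chr2:97645862-97646061 on the plus strand for COX5B, chr17:75046970-75047169 on the minus strand for ATP5PD, chrX:77899268-77899467 on the plus strand for COX7B and chr19:14572067-14572266 on the minus strand for NDUFB7. COX5B held the NRF1 letters and the ETS letters, and ATP5PD held the ETS letters on the opposite strand. COX7B held the TATA letters on both strands in overlapping positions, and NDUFB7 held none of the 4. RefSeq promoters of 300 bases (250 before and 50 after the start) matched 66 of the 81 members. The NRF1 letters occurred in 13 of the 66 (19.7%) against 3.05% of all 35116 promoters, and the YY1 letters in 11 (16.7%) against 2.89%. The ETS letters occurred in 10 (15.2%) against 4.14%, and the TATA letters in 6 (9.09%) against 11.5%. Promoters of all genes include those of non-coding genes. Under EDTA in B4-4 the median log2 fold change was −0.33 for the 13 members with the NRF1 letters and −0.35 for the 53 without, and −0.43 for the 10 with the ETS letters and −0.34 for the 56 without. A match of letters is a description and not a binding site.

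Among the members, the highest level per length was that of a catalytic-head subunit of the ATP synthase. Per kilobase of transcript, ATP5F1B (the catalytic beta subunit) averaged 619.7 CPM over the 12 libraries and ATP5F1A (alpha) 384 CPM. COX4I1, the common isoform of a complex IV subunit, averaged 469 CPM per kb, followed within that complex by COX6C at 268 CPM per kb. NDUFS5 led complex I at 286 CPM per kb, UQCRH (the hinge protein) led complex III at 266 CPM per kb, and SDHB (the iron-sulfur subunit) led complex II at 96.3 CPM per kb. The lowest of each complex were NDUFA7 (0.704 CPM per kb), SDHC (11.9), UQCRHL (2.098), COX7A2L (88.9) and ATP5ME (23.1, per kb as before). The complexes differed in their medians per kb: 211 CPM for complex IV, 137 for complex V, 73.7 for complex III, 64.8 for complex II and 62.3 for complex I.

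**Figure D1:**
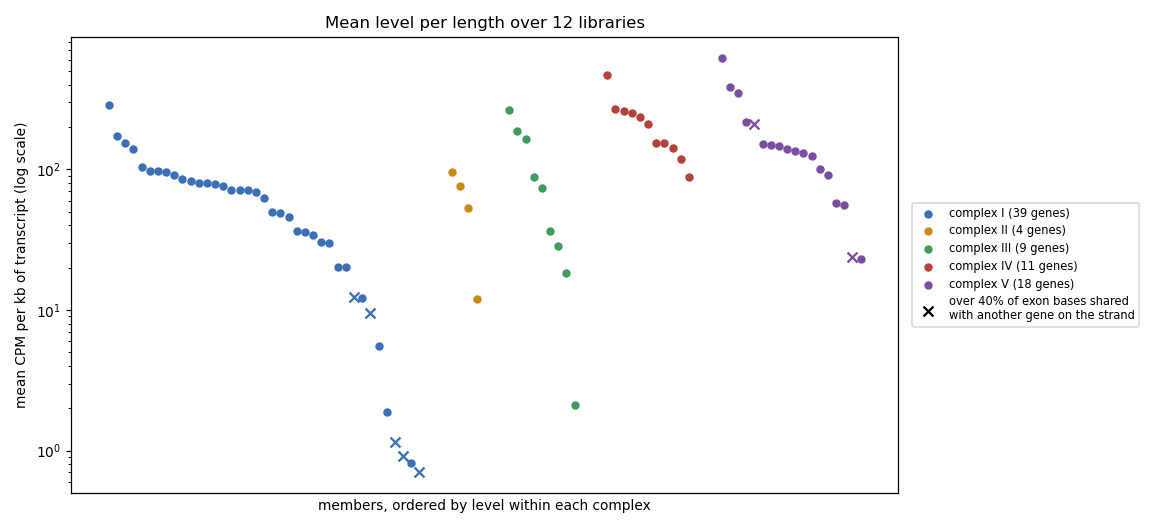
Mean level of each of the 81 members over 12 libraries in CPM per kb of transcript (log axis), ordered within each complex, with crosses for members that share over 40% of their exon bases with another gene on the same strand. The crosses fall mostly at the low end, and complex IV has the narrowest range, from 88.9 to 469.

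Some low values belong to members whose exons another annotated gene shares, where a counter can leave reads unassigned. The 7 members with over 40% of their exon bases shared on the same strand (NDUFB8, NDUFA11, NDUFV2, NDUFA13, NDUFA7, ATP5MF and ATP5PO) had a median of 9.56 CPM per kb, against 90.5 for the 67 members with none shared. Their part in these levels was not tested. NDUFA7, NDUFV2 and NDUFA13 together gave few counts, with 93 for NDUFA7 over all 12 libraries. SDHC is divided by a transcript of 13566 nt, which sets its low value per kb (162 CPM before division). Pseudogene rows named after members held 5778 counts in all, against 2105815 for the members, and SDHA, COX6A1 and UQCRFS1, like UQCRH and its near copy UQCRHL, may share reads with them.

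Isoforms known from heart, muscle, lung or testis were near or at 0. Of the 9 rows below the count minimum, COX6B2 had 30 counts over the 12 libraries, COX7A1 25, ATP5MGL 7, COX8C 5, the readthrough gene ATP5MF-PTCD1 2 and COX4I2 1. COX6A2, COX7B2 and the readthrough gene NDUFC2-KCTD14 had 0 of 223813997 counts, which allows up to 3 counts, or 0.0134 CPM, for counting error only. The counterparts COX4I1, COX6A1, COX6B1, COX7A2 and COX8A were at 336, 67.2, 119, 120 and 77.8 CPM on average.

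EDTA in B4-4 went with falls across the module: 39 of 81 members fell and 0 rose (edgeR's quasi-likelihood test over all 15749 genes, with Benjamini-Hochberg adjustment at 0.05). Of all genes tested, 10.05% fell and 9.88% rose. The members' median log2 fold change was −0.34, a ratio of 0.792, against −0.01 for all genes, and 79 of 81 were negative. In complex IV 10 of 11 genes fell, in complex III 6 of 9, in complex II 2 of 4, in complex V 8 of 18 and in complex I 13 of 39. The lowest of all 12 libraries was B4-4 EDTA 1 for 35 members and B4-4 EDTA 2 for 9. The shares of all genes tested that were lowest there are not given here. In 73 of 81 members both B4-4 EDTA libraries lay below both B4-4 NA libraries, as they did in 29.3% of all genes tested. The count of falls was 3 without either B4-4 EDTA library, 18 without B4-4 NA 2 and 59 without B4-4 NA 1, and the median then lay between −0.44 and −0.26. Fitted on the 4 B4-4 libraries alone, 1 member fell.

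**Figure D2:**
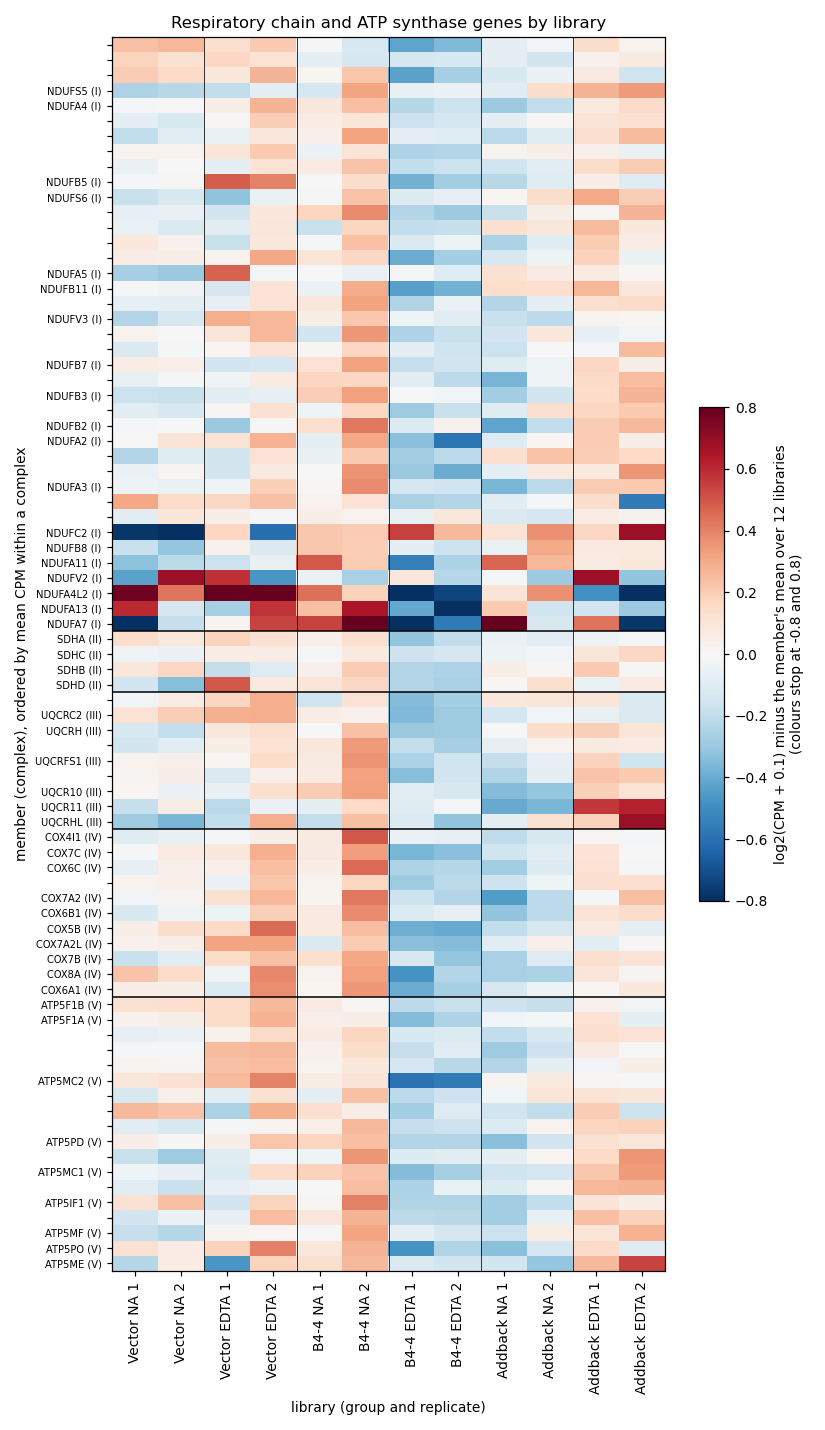
Each row is a member, grouped by complex between black lines and labelled for members named in the text, each column is a library, and colour is log2(CPM + 0.1) minus that member's mean over the 12 libraries. The B4-4 EDTA columns are blue in nearly all rows and B4-4 NA 2 is red in most, while rows of few counts such as NDUFA7 and NDUFA4L2 swing most.

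ATP5MC2 (ENSG00000135390, chromosome 12, 53632726 to 53677408, GRCh38), which encodes subunit c of the proton-driven ring, had the smallest adjusted p of the members. It stood at 135 and 138 CPM in B4-4 NA and at 85.9 and 87.7 CPM in B4-4 EDTA. The Vector values were 137 and 141 CPM without EDTA and 154 and 170 CPM with it, and the Addback values 131 and 137 CPM without and 130.5 and 129.5 CPM with it. The B4-4 EDTA libraries thus lay apart below the other 10, which ran from 129.5 to 170 CPM. The log2 fold change with EDTA in B4-4 was −0.65 (SE 0.09, adjusted p = 0.000633) and was called without any single library. A second gene for the same subunit, ATP5MC1 (chromosome 17), was at 90.9 and 93.4 CPM in B4-4 NA and 62.8 and 66.4 CPM in B4-4 EDTA.

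In complex IV, COX7C (chromosome 5) and COX5B (chromosome 2) are nuclear-encoded subunits outside the catalytic core. COX7C was at 181 and 217 CPM in B4-4 NA and at 133 and 136 CPM in B4-4 EDTA, a log2 fold change of −0.56 (SE 0.11, adjusted p = 0.00509). COX5B was at 105 and 118 CPM in B4-4 NA and at 75.55 and 75.03 CPM in B4-4 EDTA. For both genes the B4-4 EDTA libraries were below all of the other 10. COX4I1 was at 351 and 470 CPM in B4-4 NA, with the replicates far apart, and at 321 and 318 CPM in B4-4 EDTA.

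Among the complex I members that passed the test, the largest fall was that of NDUFA11, a membrane arm subunit, from 7.12 and 5.81 CPM to 3.41 and 4.21 CPM (log2 fold change −0.77, SE 0.20, adjusted p = 0.0212). That call ended without B4-4 NA 1 (adjusted p = 0.0688 in edgeR), B4-4 EDTA 1 (0.181) or B4-4 EDTA 2 (0.0664). NDUFA2 fell from 37.5 and 48.9 CPM to 31.2 and 26.3 CPM (−0.58, SE 0.14, adjusted p = 0.015), a call lost without B4-4 NA 2 (0.0682) or B4-4 EDTA 2 (0.134). Members whose exons are shared with other genes, NDUFA11 among them, carry that limit here too.

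Complex II, which belongs also to the citric acid cycle, had 2 of 4 genes fall. SDHA, the flavoprotein, was at 188 and 200 CPM in B4-4 NA and at 146 and 159 CPM in B4-4 EDTA. SDHB was at 114 and 127 CPM in B4-4 NA and at 93.8 and 93.1 CPM in B4-4 EDTA. The membrane anchors SDHC (160 and 171 CPM against 144 and 147 CPM) and SDHD (80.8 and 84.7 CPM against 64.2 and 63.1 CPM) did not pass the test, though no B4-4 EDTA library reached a B4-4 NA library.

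In Vector, EDTA went with 4 rises and 0 falls, against 6.36% of all genes that rose and 8.98% that fell. The median was 0.13 against 0.00 for all genes, and 65 of 81 members were positive. The rises were SDHD, NDUFA5, NDUFV3 and NDUFB5, so 3 of 39 in complex I, 1 of 4 in complex II and none in complexes III, IV and V. Over the module 13 members had an unadjusted p under 0.05, and the share of all genes at that cut is not given here. The count was 1 without Vector NA 1, Vector NA 2 or Vector EDTA 1, and 10 and 9 when B4-4 NA 1 or 2 was left out. The median was 0.22 without Vector EDTA 1 and 0.04 without Vector EDTA 2.

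SDHD gave 67.9 and 59.6 CPM under NA and 107 and 79.6 CPM under EDTA in Vector, with a log2 fold change of 0.55 (SE 0.13, adjusted p = 0.0152). The EDTA replicates differed from each other by more than the lower of them did from the NA libraries. The call ended without Vector NA 2 (adjusted p = 0.152 in edgeR) or Vector EDTA 1 (0.13). NDUFA5, an accessory subunit of complex I, gave 53.9 and 52.7 CPM without and 89.6 and 64.0 CPM with EDTA. Its call (adjusted p = 0.0198 in edgeR) was lost without Vector NA 1 (0.107), Vector NA 2 (0.135) or Vector EDTA 1 (0.163). NDUFV3 gave 48.3 and 52.0 CPM without and 69.7 and 68.4 CPM with EDTA (0.46, SE 0.10, edgeR adjusted p = 0.00711), lost without Vector NA 1 (0.101). NDUFB5 gave 89.6 and 90.9 CPM without EDTA against 127 and 119 CPM with it, the highest of all groups.

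In Addback, EDTA went with 13 rises and 0 falls, against 8.64% of all genes that rose and 8.29% that fell. The median was 0.18 against 0.01 for all genes, and 66 of 81 members were positive. By complex the rises were 5 of 39 in I, 0 of 4 in II, 3 of 9 in III, 2 of 11 in IV and 3 of 18 in V. The count fell to 1 and 3 when Addback NA 1 or 2 was left out, and to 2 when Addback EDTA 2 was. It was 5 without any 1 of the Vector NA or B4-4 EDTA libraries, 25 without either B4-4 NA library, and 5 with upper-quartile scaling.

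UQCR11 (chromosome 19, 1597172 to 1605490), a small accessory subunit of complex III, was at 10.2 and 10.46 CPM in Addback NA and at 20 and 20.8 CPM in Addback EDTA. In the other 8 libraries it ran from 11.6 to 15.1 CPM, so the Addback EDTA libraries lay above all others and the Addback NA libraries below all others. The log2 fold change was 0.98 (SE 0.15, adjusted p = 0.00117), called without any single library. Of its exon bases 31.2% are shared with another gene on its strand. UQCR10, another small complex III subunit, was at 52.7 and 53.9 CPM in Addback NA and at 76.4 and 72.2 CPM in Addback EDTA. NDUFB2 gave 29.4 and 34.4 CPM without and 45.5 and 47.1 CPM with EDTA (adjusted p = 0.019 in edgeR), lost without Addback NA 1 (0.19) or Addback EDTA 2 (0.0892). NDUFA3 gave 22.4 and 24.9 CPM without and 33.1 and 33.4 CPM with EDTA (adjusted p = 0.0277 in edgeR). Its call ended with upper-quartile scaling (0.0517) and without Vector NA 1 (0.0543), Vector NA 2 (0.0547), B4-4 EDTA 1 or B4-4 EDTA 2 (0.053 each). It also ended without the first (0.218) or second (0.08) Addback NA library, Addback EDTA 1 (0.0528) or Addback EDTA 2 (0.104).

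**Figure D3:**
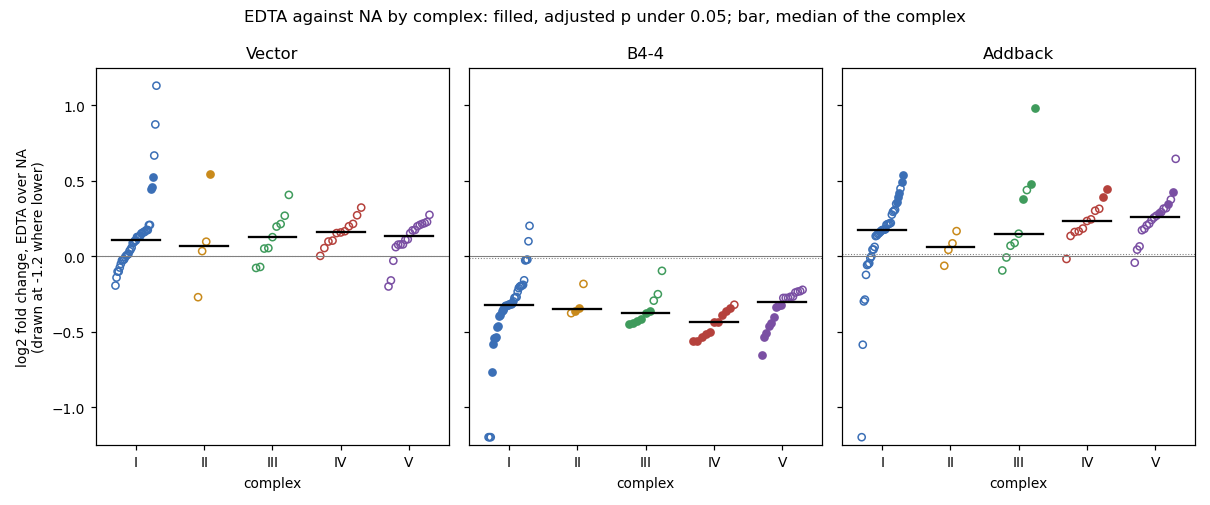
Log2 fold change of EDTA over NA for each member, by complex and derivative, filled where the adjusted p is under 0.05, with a bar at the median of each complex and a dotted line at the median of all genes tested. The medians of all 5 complexes lie below 0 in B4-4, from −0.44 to −0.30, and above 0 in Vector and Addback.

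The difference between derivatives was tested directly, as the EDTA effect in one minus that in the other. For B4-4 minus Vector, 40 of 81 members were lower and 0 higher, against 12.6% of all genes lower and 14.4% higher. The median difference was −0.48 on the log2 scale against −0.01 for all genes, and 80 of 81 members were negative. Complex IV had 8 of 11 lower, complex V 10 of 18, complex III 5 of 9, complex II 2 of 4 and complex I 15 of 39. The count was 12 and 18 when B4-4 EDTA 1 or 2 was left out, 13 and 14 when Vector NA 1 or 2 was, and 17 when Vector EDTA 2 was. Upper-quartile scaling moved the median of all genes by −0.10 in this difference and that of the members to −0.59.

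For Addback minus B4-4, 38 members were higher and 0 lower, against 4.22% of all genes higher and 4.57% lower, and 80 of 81 were positive. The median difference was 0.54 against 0.04 for all genes. Complex V had 11 of 18 higher, complex IV 8 of 11, complex III 4 of 9, complex I 15 of 39 and complex II 0 of 4. ATP5MC1 was among them (0.94, SE 0.15, edgeR adjusted p = 0.0028), called without any single library, its Addback libraries moving from 71.6 and 72.6 CPM in NA to 92.6 and 101.1 CPM in EDTA. The count was 3 without Addback NA 1 and 16 when Addback NA 2 was left out, 4 and 8 when B4-4 EDTA 1 or 2 was left out, 23 when Addback EDTA 1 or either Vector NA library was, and 59 when B4-4 NA 1 was. These differences share the B4-4 libraries with those of the previous comparison.

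For Addback minus Vector, 3 members were higher and 3 lower, against 13.4% of all genes higher and 10.8% lower. The median was 0.07 against 0.00 for all genes and turned to −0.0125 with upper-quartile scaling. It was 0.165 without Vector EDTA 2 and 0.00864 without Vector EDTA 1. The 6 members were UQCR11, NDUFB2 and UQCR10, higher, and SDHD, NDUFA4L2 and NDUFA5, lower. The count was 1 without Vector NA 2, Vector EDTA 1 or Addback NA 1, 2 without Vector NA 1 or Addback NA 2, 3 without Addback EDTA 1 or Addback EDTA 2, and 11 without B4-4 NA 1 or B4-4 NA 2. With 15 members at an unadjusted p under 0.05, a difference between these derivatives was not shown for most of the module. The share of all genes at that cut is not given here. Of the 81 members, 51 had a higher point estimate with EDTA in Vector, lower in B4-4 and higher in Addback. The share of all genes with this pattern is not given here, so the count describes the members only.

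Under NA, B4-4 and Vector differed little in calls: 2 members rose and 1 fell in B4-4, against 3.38% of all genes that rose and 3.78% that fell. With upper-quartile scaling, or TMM factors set without the module and ribosomal protein genes, 2 rose and 0 fell. The median was 0.175 against 0.02 for all genes, 0.05 without B4-4 NA 2 and 0.27 without B4-4 NA 1. The count was 24 without B4-4 NA 1 and 0 without Vector NA 1 or Vector NA 2. With all libraries 26 members had an unadjusted p under 0.05 in edgeR. Without the share of all genes at that cut, not given here, this count shows no excess among the members. The rises were NDUFC2 and NDUFB3, both of complex I.

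NDUFC2 (chromosome 11, 78068304 to 78080219), an accessory subunit of the membrane arm, gave 7.51 and 5.09 CPM in Vector NA against 15.1 and 14.95 CPM in B4-4 NA (log2 fold change 1.26, SE 0.28, adjusted p = 0.022). The call ended without Vector NA 1 (adjusted p = 0.0641 in edgeR), Vector NA 2 (0.191) or B4-4 NA 2 (0.0546). In Addback NA it was at 14.0 and 16.7 CPM, 1.29 above Vector NA on the log2 scale (SE 0.28, edgeR adjusted p = 0.00383), a call kept without any single library. In EDTA the libraries ran from 8.51 to 20.9 CPM. The Vector NA libraries were thus the lowest of all 12, while replicates of Vector EDTA (14.55 and 8.51 CPM) lay far apart. Part of the exons of NDUFC2 is shared with another gene on its strand.

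NDUFB3 gave 39.5 and 39.3 CPM in Vector NA against 51.15 and 55.9 CPM in B4-4 NA (edgeR adjusted p = 0.0227), lost without Vector NA 1 (0.168) or Vector NA 2 (0.177).

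Under EDTA, 36 members were lower in B4-4 than in Vector and 0 higher, against 20.4% of all genes lower and 22.9% higher. The median was −0.30 against 0.00 for all genes, and 75 of 81 were negative. Complex IV had 9 of 11 lower, complex II 2 of 4, complex III 4 of 9, complex V 8 of 18 and complex I 13 of 39. The count was 20 and 23 when B4-4 EDTA 1 or 2 was left out and 23 when Vector EDTA 2 was. Between these 2 groups the log2 fold change of ATP5MC2 was −0.90 (SE 0.09, edgeR adjusted p = 1.36e-05). NDUFB5, an accessory subunit of complex I, was at 69.5 and 74.7 CPM in B4-4 EDTA against 127 and 119 CPM in Vector EDTA (−0.77, SE 0.10, edgeR adjusted p = 0.0001). Both calls were kept without any single library. This comparison shares the B4-4 EDTA libraries with that of EDTA and NA in B4-4.

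NDUFA4L2 (chromosome 12, 57234903 to 57240715), a paralogue of NDUFA4 known to be induced by hypoxia and to lower complex I activity, had few counts (223 in all) and the widest range, 18.3-fold. It had 40 and 47 counts in Vector EDTA (1.85 and 2.08 CPM), 4 and 8 in B4-4 EDTA (0.207 and 0.426 CPM) and 9 and 2 in Addback EDTA (0.526 and 0.114 CPM). Under NA the levels were 1.401 and 1.08 CPM in Vector, 1.09 and 0.894 CPM in B4-4 and 0.839 and 1.03 CPM in Addback. The B4-4 EDTA to Vector EDTA ratio of summed counts was 0.16 (exact 95% interval 0.0795 to 0.294, counting error only), and that of Addback EDTA to Vector EDTA 0.161 (0.0775 to 0.302). Fitted log2 fold changes were −2.62 (SE 0.50, edgeR adjusted p = 0.00131) and −2.61 (SE 0.51, edgeR adjusted p = 0.00262), both kept without any single library. NDUFA4 itself, named for complex I but since placed with complex IV, was at 108 to 159 CPM.

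**Figure D4:**
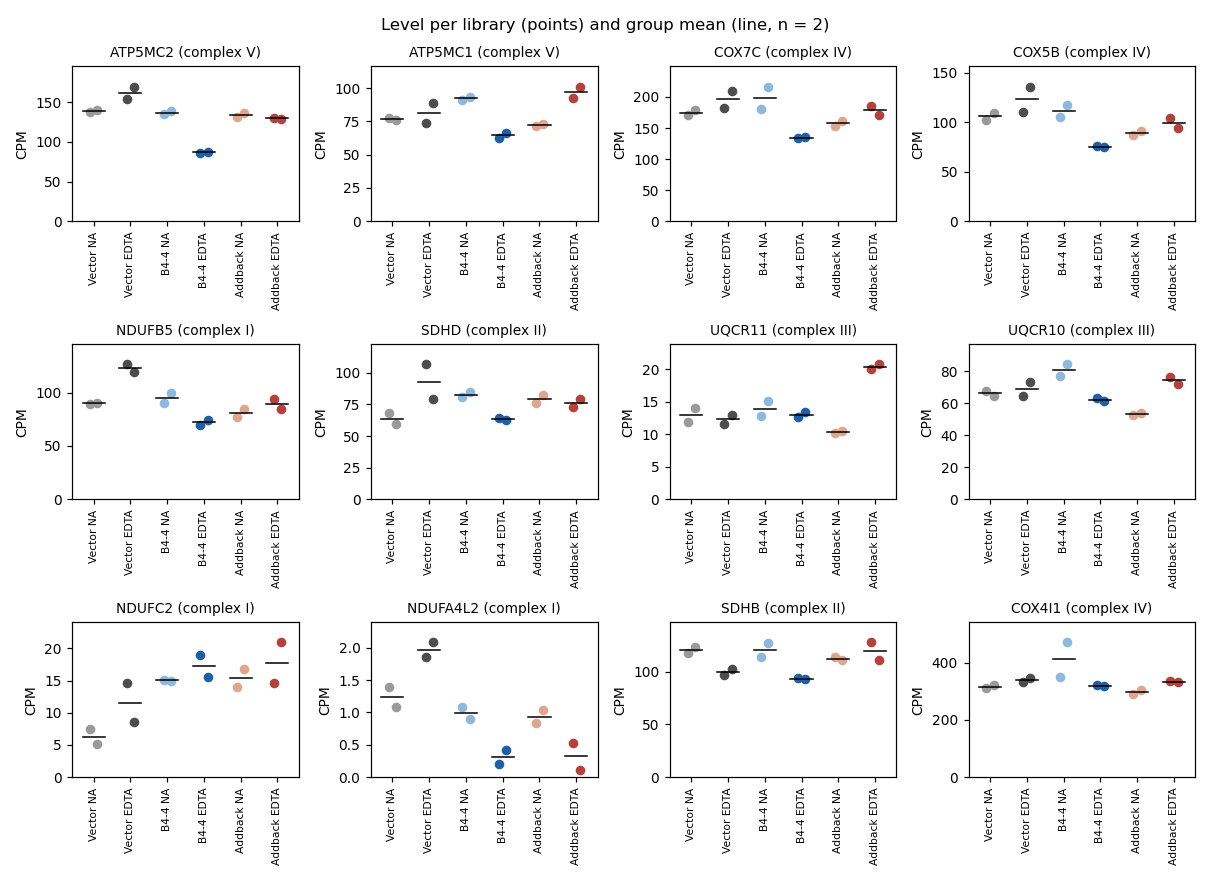
CPM of 12 members in each library (points, 2 per group) with the group mean (line), each axis starting at 0. B4-4 EDTA is the lowest group for ATP5MC2, ATP5MC1, COX7C, COX5B and NDUFB5, UQCR11 is highest in Addback EDTA, and NDUFC2 is lowest in Vector NA.

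Addback was then set against B4-4. Under NA, 22 members were lower in Addback and 0 higher, against 12.3% of all genes lower and 11.3% higher, with a median of −0.21 against −0.02 for all genes. Complex IV had 7 of 11 lower. UQCR10 was at 52.7 and 53.9 CPM in Addback NA against 77.0 and 84.2 CPM in B4-4 NA (−0.60, SE 0.10, edgeR adjusted p = 0.00147), kept without any single library. NDUFB2 (−0.59, edgeR adjusted p = 0.00905) was lost without Addback NA 1 (0.108). COX7A2, at 86.55 and 102 CPM against 120 and 159 CPM, had an edgeR adjusted p of 0.0134, lost without B4-4 NA 2 (0.061) or Addback NA 1 (0.144). The count was 1 and 9 when Addback NA 1 or 2 was left out, 35 and 11 when B4-4 NA 1 or 2 was, and 14 without Vector NA 1, Vector NA 2, B4-4 EDTA 1 or B4-4 EDTA 2. Fitted on the 4 libraries alone it was 1.

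Under EDTA, 24 members were higher in Addback than in B4-4 and 0 lower, against 6.54% of all genes higher and 7.54% lower. All 81 point estimates were positive under TMM and under each of the other 3 scalings. Under TMM they ran from 0.01 to 0.89, with a median of 0.32 against 0.01 for all genes. With upper-quartile scaling the median was 0.366 against 0.0594 for all genes. Rises numbered 7 of 18 in complex V, 3 of 11 in IV, 3 of 9 in III, 2 of 4 in II and 9 of 39 in I. ATP5MC1 was 0.58 higher on the log2 scale (SE 0.10, edgeR adjusted p = 0.00331), lost without B4-4 EDTA 1 (0.0533). UQCR11 was 0.65 higher (edgeR adjusted p = 0.0115), lost without B4-4 EDTA 1 (0.115) or B4-4 EDTA 2 (0.0712). NDUFB11 was 0.59 higher (edgeR adjusted p = 0.00958), lost without B4-4 EDTA 1 (0.0945), B4-4 EDTA 2 (0.0637) or Addback EDTA 1 (0.071). The count was 2 and 3 when B4-4 EDTA 1 or 2 was left out, and 6 and 14 when Addback EDTA 1 or 2 was. It was 11 without Vector NA 1, Vector NA 2, Addback NA 1 or Addback NA 2, and 54 and 49 when B4-4 NA 1 or 2 was left out.

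Addback and Vector differed in both directions. Under NA, 4 members were higher in Addback and 8 lower, against 17.9% of all genes higher and 18.1% lower, both above the module's shares. The median was −0.10 against 0.01 for all genes, and −0.06 with upper-quartile scaling or without Vector NA 2. Upper-quartile scaling gave 5 higher and 2 lower, and a fit of these 4 libraries alone 12 higher and 30 lower. The count was 1 without Vector NA 1, Vector NA 2, Addback NA 1 or Addback NA 2, 5 without B4-4 EDTA 1 or B4-4 EDTA 2, and 21 without B4-4 NA 2. ATP5IF1, the inhibitor of ATP hydrolysis by the synthase, was at 60.8 and 64.3 CPM in Addback NA against 80.4 and 87.15 CPM in Vector NA. COX8A was at 64.1 and 64.4 CPM in Addback NA against 89.96 and 84.99 CPM in Vector NA. NDUFC2, UQCR10, NDUFA11 and NDUFA5 were also called, and apart from NDUFC2 these calls, with those of ATP5IF1 and COX8A, were each lost without any 1 of the 4 libraries compared (edgeR adjusted p up to 0.189). Without either B4-4 EDTA library NDUFA5, ATP5IF1 and UQCR10 were lost as well, as was NDUFA5 without either Addback EDTA library (edgeR adjusted p from 0.0503 to 0.0588). Upper-quartile scaling ended the calls of COX8A, ATP5IF1 and UQCR10, and the lack of a filter that of NDUFA11 (0.074).

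Under EDTA, 5 members were higher in Addback than in Vector and 5 lower, against 16.1% of all genes higher and 14.0% lower. RLE scaling gave 4 higher and 8 lower, and upper-quartile scaling 3 higher and 9 lower. The median of 0.03 turned to −0.00779 with upper-quartile scaling and to −0.0554 without Vector EDTA 1, and was 0.10 without Vector EDTA 2. The count was 22 without B4-4 NA 1 or B4-4 NA 2 and 6 without Addback EDTA 2. UQCR11 was higher (0.73, SE 0.14, edgeR adjusted p = 0.00289), and NDUFA4L2, NDUFB5 (−0.47, SE 0.10, edgeR adjusted p = 0.00454) and UQCRC2 (−0.37, SE 0.09, edgeR adjusted p = 0.00661) were lower, all kept without any single library. UQCRC2, a core protein of complex III, was at 220 and 211 CPM in Addback EDTA against 278 and 280 CPM in Vector EDTA, and was lowest in B4-4 EDTA at 179 and 188 CPM. NDUFS5 (edgeR adjusted p = 0.0248) was lost without Vector EDTA 1 (0.15) or Addback EDTA 2 (0.106), and NDUFS6 (0.0152) without Vector EDTA 1 (0.146) or Addback EDTA 1 (0.0637).

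Genes that build, feed or regulate the chain were counted in the same way. With EDTA in B4-4, where 10.05% of all genes fell and 9.88% rose, 3 of 50 tested assembly factors fell and 1 rose, with a median of −0.09. Of 18 citric acid cycle and pyruvate dehydrogenase genes 3 fell and 0 rose. Of 17 cytochrome c, carrier and uncoupling genes 4 fell, the complex III gene CYC1 among them, and 0 rose. In the import and chaperone list 3 of 26 rose and 3 fell, and in the list of biogenesis regulators 1 of 20 rose and 2 fell. Between B4-4 and Vector under EDTA, where 20.4% of all genes were lower and 22.9% higher, 11 of 50 assembly factors were higher and 11 lower, a share near that of all genes each way. Of the 18 citric acid cycle and pyruvate dehydrogenase genes 7 were lower there and 0 higher. The lists were chosen with earlier results known, and whether they differ from the subunits was not tested.

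Among the carriers, SLC25A6, an ADP/ATP exchanger, was at 614 and 691 CPM in B4-4 NA and at 453 and 459 CPM in B4-4 EDTA (−0.52, SE 0.09, edgeR adjusted p = 0.00362), called without any single library. CYC1, a complex III subunit kept in that list, and SLC25A5 also fell there, each call being lost without either B4-4 EDTA library. Without B4-4 EDTA 1 and 2 in turn, log2 fold changes were −0.445 and −0.479 for CYC1 and −0.349 and −0.392 for SLC25A5. The SLC25A5 call was also lost without B4-4 NA 2 (log2 fold change −0.213). In the citric acid cycle, SUCLG1, a succinyl-CoA ligase subunit, was lower in B4-4 than in Vector under EDTA (−0.67, SE 0.09, edgeR adjusted p = 0.000122), a call kept without any single library. ECSIT, a complex I assembly factor, was at 24.7 and 30.3 CPM in B4-4 EDTA against 48.7 and 53.0 CPM in Vector EDTA, and COX10, which makes heme for complex IV, at 31.8 and 31.4 CPM against 52.4 and 52.2 CPM. TOMM40, the pore of the outer membrane import machinery, went the other way, at 187 and 200 CPM in B4-4 EDTA against 104 and 120 CPM in Vector EDTA.

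Among the regulators, NFE2L2 and PPARGC1A fell and PPRC1 rose with EDTA in B4-4, the calls of PPARGC1A and PPRC1 there being lost without B4-4 EDTA 1, and each also without 1 other B4-4 library. The 3 genes were also called between B4-4 and Vector under EDTA. PPARGC1A, a coactivator of mitochondrial biogenesis, had 51 and 37 counts in Vector EDTA and 0 and 2 in B4-4 EDTA. The ratio of summed counts was 0.0263 (exact 95% interval 0.00314 to 0.098, counting error only; edgeR adjusted p = 0.000124). In NA it had 5 and 5 counts in Vector, 11 and 5 in B4-4, and 34 and 44 in Addback. In Addback EDTA it had 10 and 16 counts, fewer than in Addback NA. NFE2L2, the antioxidant response factor, was at 322 and 275 CPM in Vector EDTA and at 118 and 119 CPM in B4-4 EDTA (−1.33, SE 0.12, edgeR adjusted p = 7.46e-06). PPRC1, a coactivator related to PPARGC1A, was higher there, at 110 and 108 CPM against 52.3 and 57.1 CPM (0.99, SE 0.12, edgeR adjusted p = 6.66e-05). These 3 calls between B4-4 and Vector were kept without any single library.

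Other large protein families were set beside the module. Of 81 cytosolic ribosomal protein genes, 69 fell and 1 rose with EDTA in B4-4 (median −0.42), and 58 were higher and 0 lower in Addback than in B4-4 under EDTA, against 6.54% of all genes higher and 7.54% lower. Mitochondrial ribosomal proteins had 10 of 78 fall and 1 rise with EDTA in B4-4 (median −0.13), and proteasome subunits 0 of 37 fall and 4 rise (median 0.04), against 10.05% of all genes that fell and 9.88% that rose. Members have short transcripts, with a median of 844 nt against 2563 nt for all genes tested. Across 15466 genes outside the module and both lists of ribosomal proteins, Spearman's rank correlation between transcript length and log2 fold change was 0.185 for EDTA in B4-4 and −0.228 for Addback against B4-4 under EDTA. The rank correlation with GC content was −0.182 and 0.101 in the same comparisons. Endothelial PECAM1 was also lowest in B4-4 EDTA, at 3.46 and 3.35 CPM against 8.81 to 34.2 CPM elsewhere, with CDH5 at 0 throughout. The part of length, GC content or other cells in the module's differences was not tested. Fewer cells of a kind and less RNA per cell cannot be told apart in these bulk libraries.

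**Figure D5:**
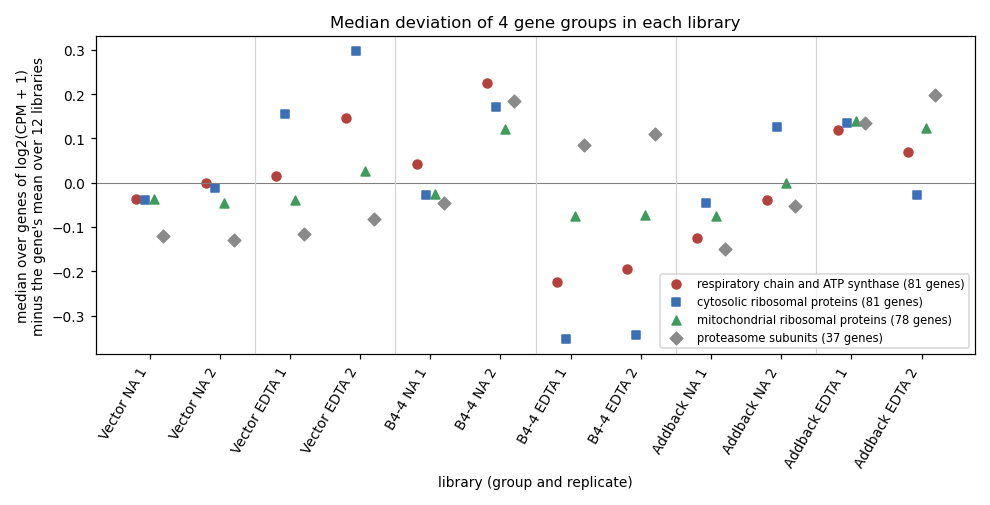
Median over genes of log2(CPM + 1) minus the gene's mean over the 12 libraries, for the 81 members, 81 cytosolic ribosomal protein genes, 78 mitochondrial ribosomal protein genes and 37 proteasome subunits in each library. The module is at −0.22 and −0.19 in the B4-4 EDTA libraries and highest, at 0.225, in B4-4 NA 2, and the cytosolic ribosomal proteins are also lowest in B4-4 EDTA.

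The spread of the module over libraries can be read member by member. In B4-4 EDTA 1 and 2, 2 and 3 of 81 members were above their mean over the 12 libraries, against 77 in B4-4 NA 2. B4-4 NA 2 was the highest library for 34 members and Vector EDTA 2 for 20, while B4-4 EDTA 1 was the lowest for 35 and Addback NA 1 for 20. Counts of these kinds over all genes tested are not given here, so whether they are particular to the module was not tested. The median deviation was 0.04 in B4-4 NA 1 against 0.225 in B4-4 NA 2. It was 0.01 and 0.15 in Vector EDTA 1 and 2, and −0.125 and −0.04 in Addback NA 1 and 2. The SD between replicates, pooled over all groups with these pairs included, was 0.0724. Within members, the ratio of the highest to the lowest library had a median of 1.54, against 2.13 for all genes tested, and reached 2 or more in 9 members.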

How the data were processed

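RNA was measured in 12 libraries. Per the labels' protocols, 250 ng of RNA gave stranded polyA libraries (300 bp inserts), sequenced as 150 bp paired reads. The authors deposited unnormalised whole-number read counts per Ensembl gene. The submitters' processing notes list featureCounts 1.5.3, TopHat2 2.1.1 and SAMtools 1.4.1, and the builds GRCh38, hg19 and hg38, without saying which did what. Neither the annotation release nor the strand and multi-mapping settings of the counting are stated in the labels, so reads of overlapping or antisense genes cannot be told apart. No column lacked a sample.

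Symbols, coordinates (1-based, GRCh38) and transcript lengths came from GENCODE release 29, and promoters from RefSeq. Lengths are those of a principal coding transcript. Genes were filtered with filterByExpr, which left 15749, and scaled with TMM. Group means were fitted to all 12 libraries in edgeR 4.0.16 (R 4.3.3), which gives all 6 groups 1 common dispersion trend, and 12 contrasts were formed for quasi-likelihood F tests. Calls have a Benjamini-Hochberg adjusted p under 0.05. Standard errors are the log2 fold change over the square root of F. A count of 3 is 0.135 to 0.191 CPM in these libraries. Chi-square per degree of freedom between replicates was 2.73 to 54.8, so no pair agreed within sampling noise. The fit was also run on simulated counts with 200 genes changed in B4-4 EDTA. There each gene had the same dispersion in all groups and genes varied independently. It therefore cannot show how the calls behave with replicates as uneven as these.

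The members, gene lists and naming rule were chosen with earlier results of these data known. Named are the 4 SDH genes, the highest and lowest member per length in each complex, isoforms, and up to 3 members per direction with the largest called change per comparison (2 for differences of EDTA effects). COX7C, COX5B, the genes whose promoters are shown and those listed for a count of 13 or fewer were added after their values were seen. Alternatives were RLE and upper-quartile scaling, TMM without the module and ribosomal proteins, no filter, DESeq2 1.42.0, the groups compared alone, a replicate block and leaving out each library. Promoters of 1 chromosome and a few called genes are not reported here.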

Additional observations from a re-analysis of the deposited data

Results flagged for a closer look

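Differences between the EDTA effects of 2 derivatives, tested directly with edgeR's quasi-likelihood test, passed the threshold for these members. Between B4-4 and Vector 40 members differed, against 14.4% of all genes higher and 12.6% lower. Between Addback and Vector 6 differed, against 13.4% of all genes higher and 10.8% lower, both above the module's shares. Between Addback and B4-4 38 differed, against 4.22% of all genes higher and 4.57% lower. The largest in the first were NDUFA7 (−3.2 on the log2 scale, edgeR adjusted p = 0.0356) and NDUFA4L2 (−2.31, adjusted p = 0.0268). NDUFA7 had 93 counts over 12 libraries, and both calls were lost without any of several single libraries. DESeq2 gave an adjusted p of 0.0709 for NDUFA7.

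Between Addback and Vector, UQCR11 (1.06, edgeR adjusted p = 0.00339) and NDUFB2 (0.681, adjusted p = 0.0221) were higher. NDUFA4L2 (−2.2, adjusted p = 0.0366) and SDHD (−0.611, adjusted p = 0.0308) were lower. Only the UQCR11 call of these 4 was kept without every single library. Between Addback and B4-4, UQCR11 (1.08, edgeR adjusted p = 0.00836) was lost without B4-4 EDTA 1 (0.0534) or Addback NA 1 (0.0531). ATP5MC1 (0.938, adjusted p = 0.0028) was kept without each library in turn.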

How the results depend on the processing

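Having 2 libraries per group, uneven in B4-4 NA and Addback EDTA, limits every count. Of 41 named gene and comparison pairs, 28 lost the call without some library and 0 changed direction. A fit of the groups compared alone called 12 members for EDTA in Vector, 1 for EDTA in B4-4, 0 for B4-4 against Vector in NA, 1 and 42 for Addback in NA against B4-4 and Vector, 6 for Addback against Vector in EDTA and 18 for Addback minus B4-4. RLE, upper-quartile scaling and DESeq2 each called 7 for EDTA in Vector. Upper-quartile scaling called 5 for EDTA in Addback and 7 for Addback against Vector in NA, and DESeq2 called 7 for B4-4 against Vector in NA. With upper-quartile scaling the medians were −0.386 for B4-4 against Vector in EDTA, −0.587 for B4-4 minus Vector and −0.0125 for Addback minus Vector.

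Leaving out each library gave 1 to 10 called members for EDTA in Vector, 3 to 59 in B4-4 and 1 to 25 in Addback. It gave 0 to 24 for B4-4 against Vector in NA and 20 to 46 in EDTA, 1 to 35 for Addback against B4-4 in NA and 2 to 54 in EDTA, and 1 to 21 for Addback against Vector in NA and 6 to 22 in EDTA. For the differences of EDTA effects it gave 12 to 60 for B4-4 minus Vector, 1 to 11 for Addback minus Vector and 3 to 59 for Addback minus B4-4. Medians ranged from 0.0448 to 0.219 for EDTA in Vector, −0.44 to −0.26 in B4-4, 0.0503 to 0.268 for B4-4 against Vector in NA and −0.384 to −0.216 in EDTA. They ranged from −0.319 to −0.143 for Addback against B4-4 in NA, −0.0554 to 0.101 for Addback against Vector in EDTA, −0.577 to −0.355 for B4-4 minus Vector, 0.00864 to 0.165 for Addback minus Vector and 0.458 to 0.643 for Addback minus B4-4. Counts rose in some of these fits and fell in others, and the cause was not tested. Each fit has fewer samples, and it also sets the dispersion trend that all groups share from the libraries left. The calls over all genes in the alternative fits of this section are not given here. A change in a member count may therefore go with one over all genes.

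Replicate numbers gave no strong sign of pairing: replicate differences of the groups compared correlated at −0.107 to 0.173 across genes. Such weak correlations cannot exclude that samples of equal number were prepared together. With a replicate block, 40 members were called for EDTA in B4-4 and 45 for B4-4 minus Vector, and no count moved by more than 1.5 times. Numbers crossed for Addback against Vector in EDTA, an alternative chosen after seeing the data, gave 14 calls.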
